A study of Mus musculus with 6 samples.

Results

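B cell, major histocompatibility complex (MHC) class II and myeloid genes were followed in RNA of mouse splenic CD4 preparations. The 43 genes comprised 15 B cell genes, 5 MHC class II genes and 23 myeloid genes, out of 27968 genes on the array. They were chosen by name, and 41 were found under the gene name in the files, Ighm under an older synonym (Igh-6) and Spi1 through its transcript accession (listed as Sfpi1). Each gene was read from its brightest probe with a value on at least 4 arrays, and 41 of the 43 were bright enough to test. Both sides of every array were CD4 cells of C57BL/6J mice activated with PMA (a phorbol ester) and ionomycin (a calcium ionophore). One side had been treated with vasoactive intestinal peptide (VIP), an immune-modulating neuropeptide, and the other had not. Each sample pooled 5 to 10 spleens of males and females aged 6 to 32 weeks, and cells were taken with anti-CD4 magnetic beads. How much VIP was used, and for how long, was not stated in the labels. VIP was labelled with Cy5 on replicates 1, 3 and 5 and with Cy3 on replicates 2, 4 and 6, on 3 slides of 2 arrays each, so that dye orientation and slide position cannot be told apart.

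B cells carry an antigen receptor made of immunoglobulin chains, of which Ighm encodes the mu heavy chain, and of the signalling subunits encoded by Cd79a and Cd79b. MHC class II molecules present peptides to CD4 T cells. They are made by B cells, dendritic cells and macrophages under the control of the coactivator encoded by Ciita, and Cd74 encodes the invariant chain that guides them. Myeloid cells sense microbes through receptors such as CD14, TLR2, TLR4 and Dectin-1 (Clec7a). Several of the genes are not restricted to those cells: T cells can also express Prdm1, Xbp1 and Cebpb. In a bulk preparation, fewer cells of a type and less RNA per cell cannot be told apart.

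The promoters of class II genes share an arrangement of X and Y boxes, and 2 of the 5 class II genes had an entry among the RefSeq promoters (GRCm38.p6, 250 bases before to 50 after the start). They are shown because both hold the arrangement in the letters searched. Capitals mark the core of the X1 box (GCAACT) and, downstream, the Y box (CTGATTGG). H2-Aa, which encodes the class II A alpha chain, lies on the minus strand, and the stretch shown is chr17:34287847-34287924. H2-Eb1, which encodes the E beta chain, lies on the plus strand, and the stretch shown is chr17:34305756-34305832.
H2-Aa: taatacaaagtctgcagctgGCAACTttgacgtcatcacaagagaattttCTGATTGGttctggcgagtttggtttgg
H2-Eb1: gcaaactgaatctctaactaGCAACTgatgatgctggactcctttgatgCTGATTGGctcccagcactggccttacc
The motifs are 24 bases apart in H2-Aa and 23 in H2-Eb1, and do not overlap. GCAACT followed within 60 bases by CTGATTGG on the gene's strand was found in 9 of 32851 promoters (0.0274%). On either strand, CTGATTGG alone was found in 4.1% of promoters and GCAACT alone in 10.89%. The letters were chosen after these promoters had been looked at, so the match is a description. Of 11 B cell genes with a promoter entry, Fcer2a held CTGATTGG, and of 17 myeloid genes Il6 did. Of 14 further class II and related genes with an entry, 1 (H2-Eb2) held the pair, and H2-Oa held CTGATTGG without it.

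Array quality differed between replicates. Between 56.9% and 88.48% of spots were well above background by channel on replicates 1 to 5. On replicate 6 it was 99.02% in Cy3 and 99.92% in Cy5, so nearly any probe counted as above background there. Replicate 5 had 13.45% of its spots left out as outliers, against 0.574% to 4.44% on the others. The channels of replicate 5 also differed in sex-linked genes. There the Y-linked Ddx3y had a log2 ratio of VIP over untreated of 3.32, against -0.67 to 0.96 on the other arrays. Xist, which is expressed from the inactive X chromosome, had -2.80 against -0.83 to 0.96. What part this had in the values of replicate 5 was not tested, and fitted ratios whose call turned on replicate 5, and summed levels, are given with and without it. Nothing beyond the labels' pooling and replicate numbers says how the pools were made, so a p-value reflects no more than how these 6 arrays vary, which may be technical.

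Most of the genes gave signal in the CD4 preparations. Of the 15 B cell genes, 13 were well above background in all 12 channels, as were all 5 class II genes and 16 of the 23 myeloid genes, against 52.3% of 27968 genes. The T cell genes Cd4 and Cd3e were above background on 6 of 6 arrays in both channels. Pax5, the B cell identity factor, was above background on 3 arrays in each channel. Tlr4 was above background on 3 arrays in each channel and Itgam (CD11b) on 3 VIP and 4 untreated arrays. Spi1, which encodes the myeloid factor PU.1, and S100a8, a neutrophil calcium-binding protein, were each above background on 2 VIP arrays and 1 untreated array, and were not tested. A probe's brightness depends on its sequence, so the levels do not order the genes.

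**Figure D1:**
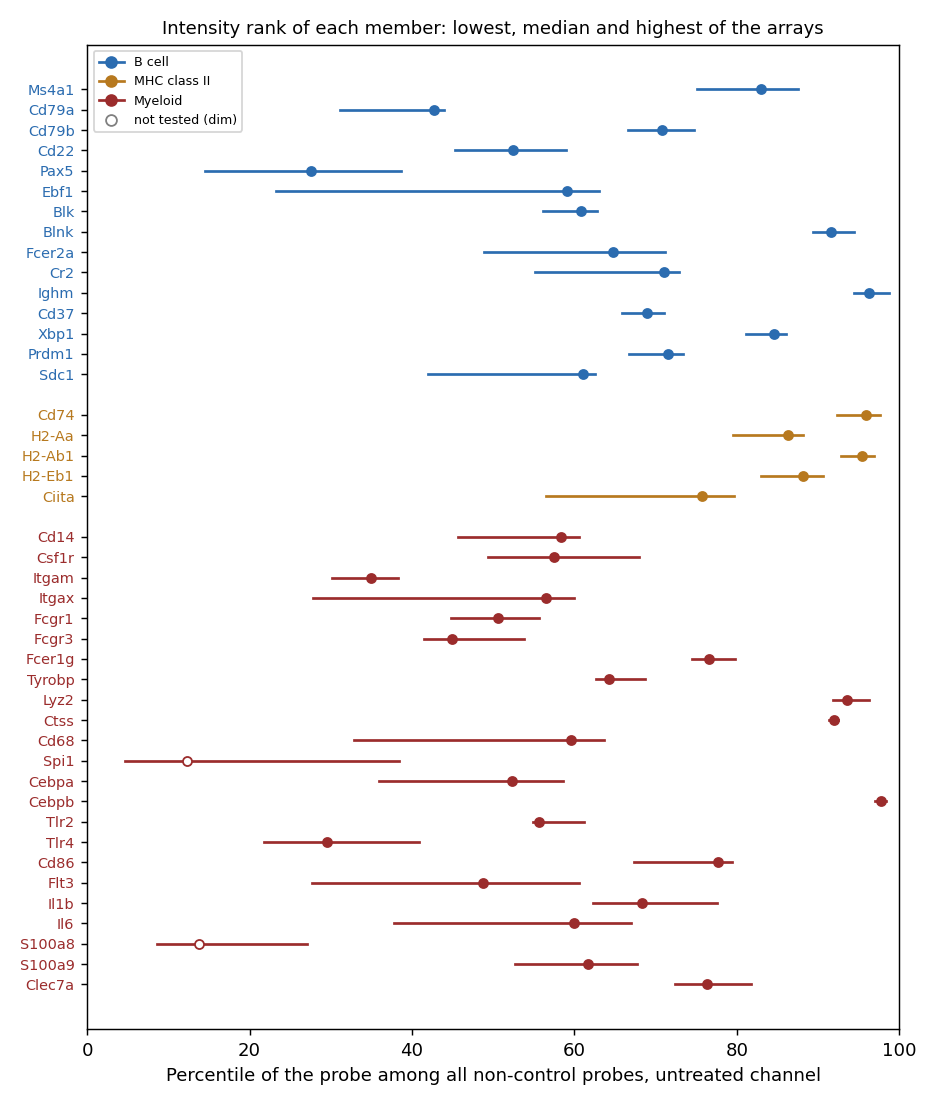
Percentile of each gene's probe among all non-control probes in the untreated channel. Points are medians over the arrays, lines run from the lowest to the highest array, and open points mark genes too dim to test. Ighm, Cd74 and Lyz2 lie near the top (medians of 96.3, 96.0 and 93.6), and Pax5 (27.6) and Spi1 (12.3) lie low. Genes are not to be ordered by these values.

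The first question was whether VIP changed these genes. The log2 ratio of VIP over untreated was fitted across all genes with limma, with a term for dye, and p-values were adjusted over all 22800 genes tested (threshold 0.05). Among all genes 2.19% passed, 1.62% higher and 0.57% lower with VIP. Of the 41 tested genes 1 passed, Cd14, which was higher with VIP. Of the genes called, 73.9% were higher. That share was 89.3% of 84 called without the offset in background correction and 93.1% of 130 with median centring. It was 100% of 19 with Agilent's own log ratios, 69.1% of 823 without replicate 5 and 67.6% of 728 with array weights.

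**Figure D2:**
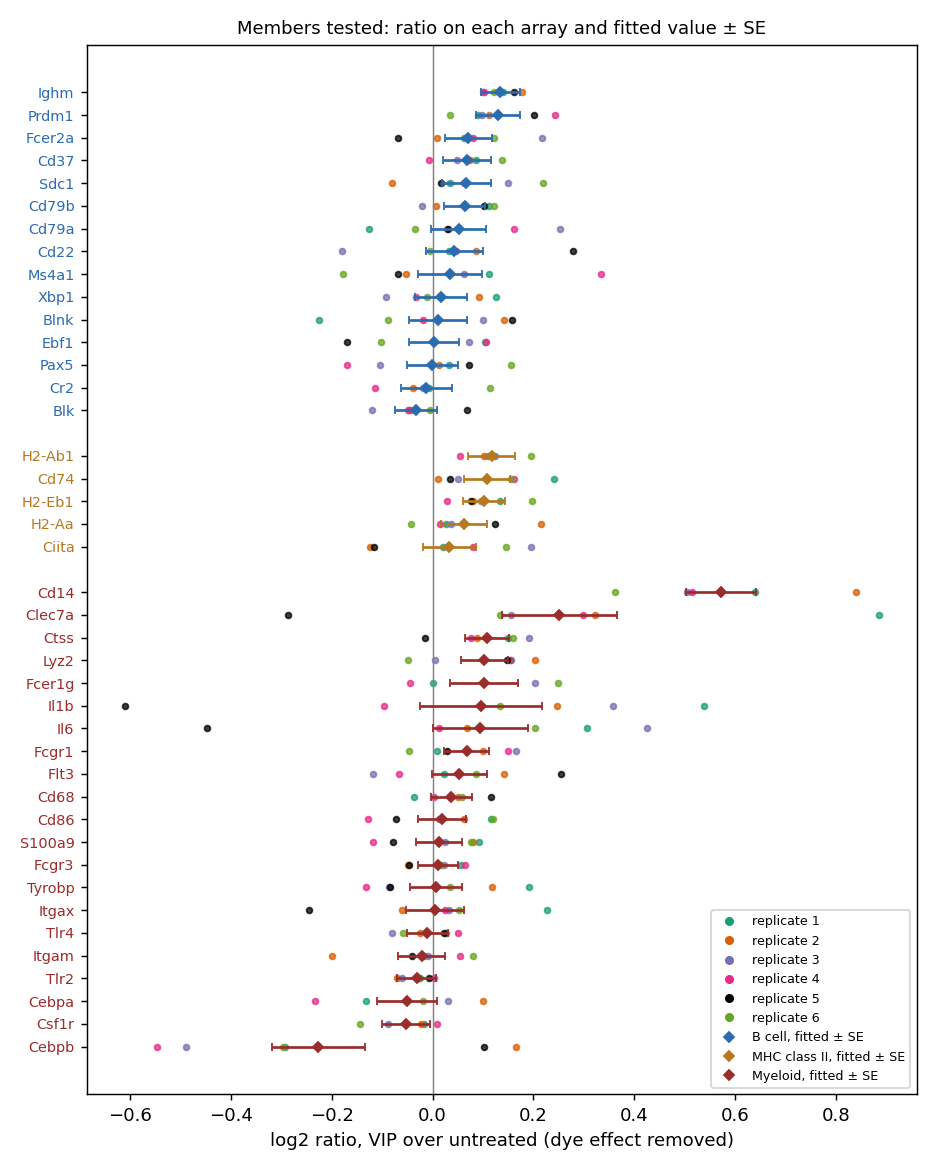
Log2 ratio of VIP over untreated after removal of the dye effect, per array (points) with the fitted ratio and its standard error, for each tested gene. Cd14 lies between 0.36 and 0.84 on the 5 arrays with a value, while Clec7a, Il1b and Il6 are below 0 on replicate 5.

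None of the 15 B cell genes passed the test in limma, and 2 had an unadjusted p under 0.05 (Ighm and Prdm1), both higher with VIP. Over all genes, 12.9% had an unadjusted p under 0.05, and 7.16% did so with a higher VIP level. Their median log2 ratio was 0.04, ranging from -0.03 to 0.13, against a median over all genes of -0.00076. The ratio was above 0 for 12 of the 15 (80%), against 49.5% of all genes. Ratios on single arrays are given here and below after removal of the dye effect, which was fitted on the same arrays. Ighm had log2 ratios of 0.14, 0.18, 0.10, 0.10, 0.16 and 0.12 on replicates 1 to 6. They were all above 0, and the fitted ratio was 0.13 ± 0.04 (SE, n = 6, limma adjusted p = 0.138). Its probe lies at chr12:114656861-114656920 (mm9, minus strand). The other probes for Ighm gave 0.09 and -0.07, so the probes disagree in direction. Prdm1, which encodes the plasma cell regulator Blimp-1, had 0.09, 0.11, 0.10, 0.24, 0.20 and 0.03, also above 0 on 6 of 6 arrays. Its fitted ratio was 0.13 ± 0.04 (SE, n = 6, limma adjusted p = 0.216). Before removal of the dye effect, Ighm was below 0 on replicate 3 (-0.008), and Prdm1 on replicates 1 and 3 (-0.06 and -0.05). After it, 2 of the 12 B cell genes with 6 values were higher on 6 of 6 arrays, against 6.03% of all genes. None of the 12 was lower on 6 of 6 arrays, against 5.4% of all genes.

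The other named B cell genes had smaller ratios. Cd79b had 0.11, 0.01, -0.02, 0.06, 0.10 and 0.12 on replicates 1 to 6 (fitted 0.06, limma adjusted p = 0.589). Fcer2a, the low-affinity IgE receptor CD23, had 0.06, 0.01, 0.22, 0.08, -0.07 and 0.12 (fitted 0.07, limma adjusted p = 0.601). Cd37, a tetraspanin of B cells and other leukocytes, had 0.09, 0.07, 0.05, -0.01 and 0.14, with no value on replicate 5 (fitted 0.07, limma adjusted p = 0.626). All 3 lay on either side of 0. Sdc1, the plasma cell surface proteoglycan CD138, had 0.04, -0.08, 0.15, 0.06, 0.02 and 0.22 (fitted 0.07, limma adjusted p = 0.637). The ratios of Ms4a1 (CD20), Cd79a, Cd22, Pax5, Ebf1, Blk, Blnk, Cr2 and Xbp1 lay between -0.03 and 0.05.

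None of the 5 class II genes passed the test in limma, and 3 had an unadjusted p under 0.05 (H2-Eb1, H2-Ab1 and Cd74). All 3 were higher with VIP, against 7.16% of all genes (12.9% in either direction). All 5 ratios were above 0, against 49.5% of all genes, with a median of 0.10 and a range from 0.03 to 0.12. Cd74 had 0.24, 0.01, 0.05, 0.16, 0.03 and 0.16 on replicates 1 to 6 (fitted 0.11 ± 0.05, SE, n = 6, limma adjusted p = 0.342). H2-Eb1 had 0.13, 0.08, 0.10, 0.03, 0.08 and 0.20 (fitted 0.10 ± 0.04, SE, n = 6, limma adjusted p = 0.318). Both were above 0 on 6 of 6 arrays after removal of the dye effect. They were 2 of the 4 class II genes with 6 values, against 6.03% of all genes. Before that removal, H2-Eb1 was below 0 on replicates 1, 3 and 5 (-0.002, -0.04 and -0.06), and Cd74 on replicate 2 (-0.004). H2-Ab1, the A beta chain, had 0.11, 0.10, 0.12, 0.05 and 0.19 and no value on replicate 5 (fitted 0.12 ± 0.05, SE, n = 5, limma adjusted p = 0.323). Its 4 probes gave between 0.11 and 0.12. With the left-out spot of replicate 5 kept, that array gave -0.10 and the fitted ratio was 0.07. H2-Aa was above 0 on 5 of 6 arrays (0.03, 0.21, 0.04, 0.01, 0.12 and -0.04), and Ciita on 4 of 6 (0.02, -0.12, 0.20, 0.08, -0.12 and 0.15). Their fitted ratios were 0.06 and 0.03 (limma adjusted p = 0.648 and 0.875).

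Of the 21 tested myeloid genes, 1 rose with VIP and 20 did not pass. Their median log2 ratio was 0.02, ranging from -0.23 to 0.57, and 15 ratios were above 0 (71.4%), against 49.5% of all genes. Of the 17 with 6 values, 0 were higher on 6 of 6 arrays after removal of the dye effect, against 6.03% of all genes. Lower on 6 of 6 arrays were 0 of the 17, against 5.4%. Cd14 encodes the lipopolysaccharide coreceptor of monocytes and macrophages. Its untreated log2 levels were 8.03, 7.78, 7.86, 8.02 and 7.203 on replicates 1, 2, 3, 4 and 6, and its VIP levels were 8.67, 8.62, 8.36, 8.54 and 7.57. VIP was the higher channel on each of these 5 arrays, although replicate 6 was low in both and its VIP level lay below 4 of the 5 untreated levels. The spot on replicate 5 was left out as an outlier. The ratios after removal of the dye effect were 0.64, 0.84, 0.50, 0.51 and 0.36, and the fitted ratio was 0.57 ± 0.07 (SE, n = 5, limma adjusted p = 0.00286), a 1.49-fold difference. With the left-out spot kept, replicate 5 gave 0.43 and the fitted ratio was 0.54 (limma adjusted p = 0.00251). Cd14 did not pass without the offset in background correction (0.71, limma adjusted p = 0.0701) or with Agilent's log ratios (0.75, limma adjusted p = 0.17), nor with the channels taken as unpaired (0.57, limma adjusted p = 1).

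The call of 3 further myeloid genes turned on replicate 5. Clec7a, the beta-glucan receptor, had 0.88, 0.32, 0.16, 0.30, -0.29 and 0.13 on replicates 1 to 6, so replicate 5 was the array below 0. Its fitted ratio was 0.25 ± 0.11 (SE, n = 6, limma adjusted p = 0.39), and without replicate 5 it was 0.39 ± 0.08 (limma adjusted p = 0.0204). Without replicate 1, where the ratio was highest, it was 0.09. Il1b and Il6, which encode inflammatory cytokines, were singled out after their values were seen. Il1b had 0.54, 0.25, 0.36, -0.10, -0.61 and 0.13, with replicate 5 lowest. Its fitted ratio of 0.10 ± 0.12 (SE, n = 6, limma adjusted p = 0.828) was 0.27 ± 0.06 without replicate 5 (limma adjusted p = 0.0193) and -0.02 without replicate 1. Il6 had 0.31, 0.07, 0.43, 0.01, -0.45 and 0.20, again with replicate 5 lowest. Its fitted ratio of 0.09 ± 0.09 (SE, n = 6, limma adjusted p = 0.766) was 0.23 ± 0.05 without replicate 5 (limma adjusted p = 0.0205), 0.01 without replicate 3 and 0.04 without replicate 1. Within slide 3, which holds replicates 5 and 6, the ratios were -0.08 for Clec7a, -0.24 for Il1b and -0.12 for Il6. Without replicate 5, 4 of the 41 tested genes passed (Cd14, Clec7a, Il1b and Il6), beside 823 of 22689 over all genes. With all arrays it was 1 of the 41, beside 499 of 22800.

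**Figure D3:**
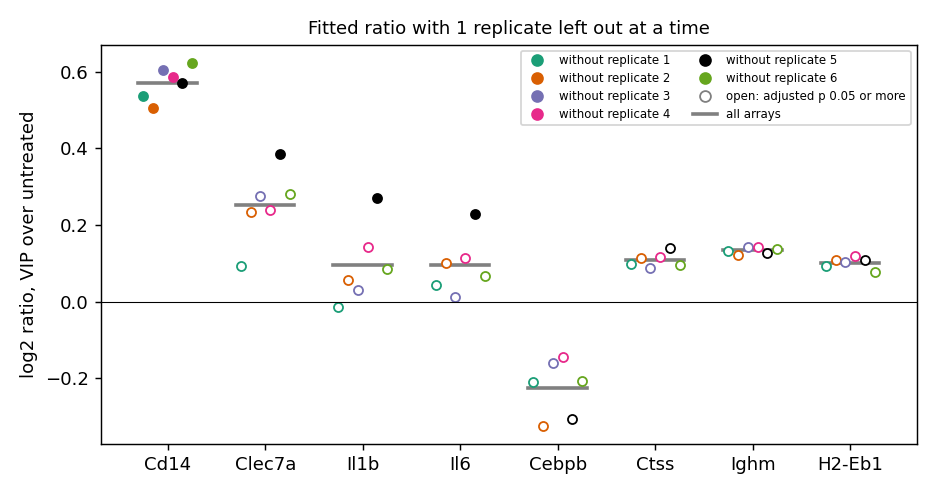
Fitted log2 ratio of VIP over untreated with all arrays and with each array left out in turn, for 8 genes (open points have an adjusted p of 0.05 or more). Clec7a moves from 0.25 to 0.39 and Il1b from 0.10 to 0.27 when replicate 5 is left out, while Cd14 stays between 0.50 and 0.62.

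Other myeloid genes did not pass in limma. Cebpb, a transcription factor of myeloid and other cells, had -0.29, 0.16, -0.49, -0.55, 0.10 and -0.30 on replicates 1 to 6, with replicates 2 and 5 above 0 (fitted -0.23 ± 0.09, SE, n = 6, limma adjusted p = 0.327). Ctss, the protease cathepsin S that degrades the invariant chain, had 0.15, 0.09, 0.19, 0.08, -0.02 and 0.16 (fitted 0.11 ± 0.04, SE, n = 6, limma adjusted p = 0.313). Lyz2, lysozyme, had 0.15, 0.20, 0.01, 0.15, 0.15 and -0.05 (fitted 0.10 ± 0.05, SE, n = 6, limma adjusted p = 0.396). Ctss and Lyz2 were each above 0 on 5 of 6 arrays. The other probe of Lyz2 gave -0.04, and the mean over both probes gave 0.03. Fcgr1, the high-affinity IgG receptor, had 0.01, 0.10, 0.17, 0.15, 0.03 and -0.05 (fitted 0.07, limma adjusted p = 0.598). The direction for Fcgr1 turned to -0.01 with the mean over its probes. Fcer1g, with 4 values, had a ratio of 0.10, and the remaining myeloid genes lay between -0.05 and 0.05.

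The level of the same gene also differed between the untreated channels of the arrays. Each preparation was read on a single array, so differences between preparations and between arrays cannot be told apart. The median range over the untreated arrays on the log2 scale was 0.95 for B cell, 1.53 for class II and 1.09 for myeloid genes, against 0.82 over all genes above the background filter. Untreated Ighm was 14.35, 14.16, 14.37, 14.40, 16.21 and 13.58 on replicates 1 to 6, highest on replicate 5 and lowest on replicate 6. Untreated Cd74 was 14.42, 14.35, 13.98, 13.71, 15.18 and 12.90, with the same arrays at the ends. Without replicate 5 the highest values were 14.40 for Ighm and 14.42 for Cd74. Untreated Ciita was 10.42, 10.06, 9.76, 9.17, 9.95 and 7.78, lowest on replicate 6.

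**Figure D4:**
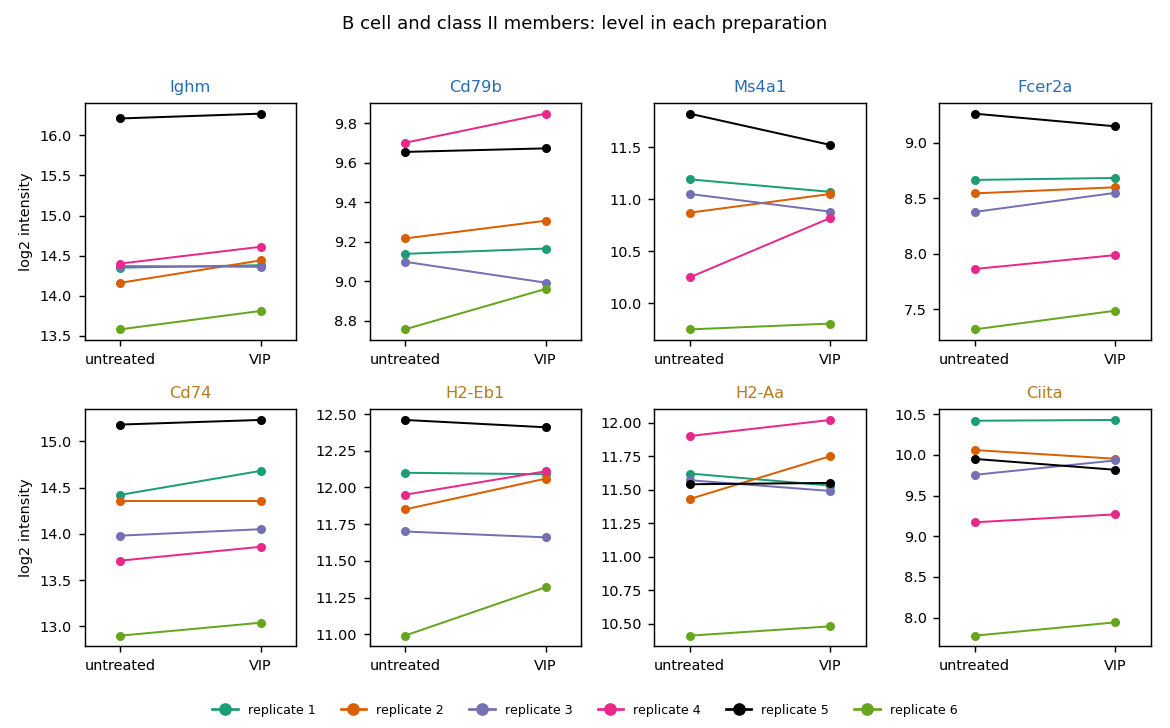
Log2 level of 4 B cell and 4 class II genes, with a line per array joining its untreated and VIP channels, after loess and scaling of average intensity between arrays (Aquantile), with the dye effect not removed. Untreated Ighm runs from 13.58 on replicate 6 to 16.21 on replicate 5, and the VIP channel follows it from 13.81 to 16.27.

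Replicate 6 was lowest in both channels for 8 of the 12 B cell genes with 6 values (66.7%), for 4 of 4 class II genes and for 6 of 17 myeloid genes (35.3%), against 29.7% of all genes. Replicate 5 was highest in both channels for 5 of 12 B cell genes (41.7%), 2 of 4 class II genes and 4 of 17 myeloid genes (23.5%), against 27.8% of all genes. Of 12 T cell genes, 3 (25%) were lowest on replicate 6 and 5 (41.7%) highest on replicate 5. The scaling matters here. With each channel centred on its median, replicate 6 was lowest for 60.4% of all genes, 75% of the B cell genes, 4 of 4 class II genes and 47.1% of the myeloid genes, and for 11 of 12 T cell genes (91.7%). Replicate 5 was then highest for 38.9% of all genes, 58.3% of the B cell genes, 2 of 4 class II genes and 41.2% of the myeloid genes. It was also highest for 8 of 12 T cell genes (66.7%). The myeloid share was thus below that of all genes under the first scaling and above it under the other. Summed over 12 B cell genes, the linear level ran from 19620 to 95670 in untreated channels and from 22290 to 97520 in VIP channels, and both upper ends were replicate 5. Without that array the upper ends were 34650 and 37720. Ighm made up between 60.3% and 79.2% of the untreated sum, most on replicate 5. For 4 class II genes the sums ran from 11270 to 46860 untreated and from 12670 to 47860 with VIP, with upper ends of 30820 and 34870 without replicate 5. Cd74 weighed most in the class II sums (untreated log2 level from 12.9 to 15.18). For 19 myeloid genes the sums ran from 46590 to 78400 untreated and from 46310 to 77010 with VIP, the latter with an upper end of 65330 without replicate 5. Cebpb, which T cells can also express, weighed most in the myeloid sums. Its untreated log2 level ran from 14.7 on replicate 2 to 15.79 on replicate 4, where the untreated sum was also highest.

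**Figure D5:**
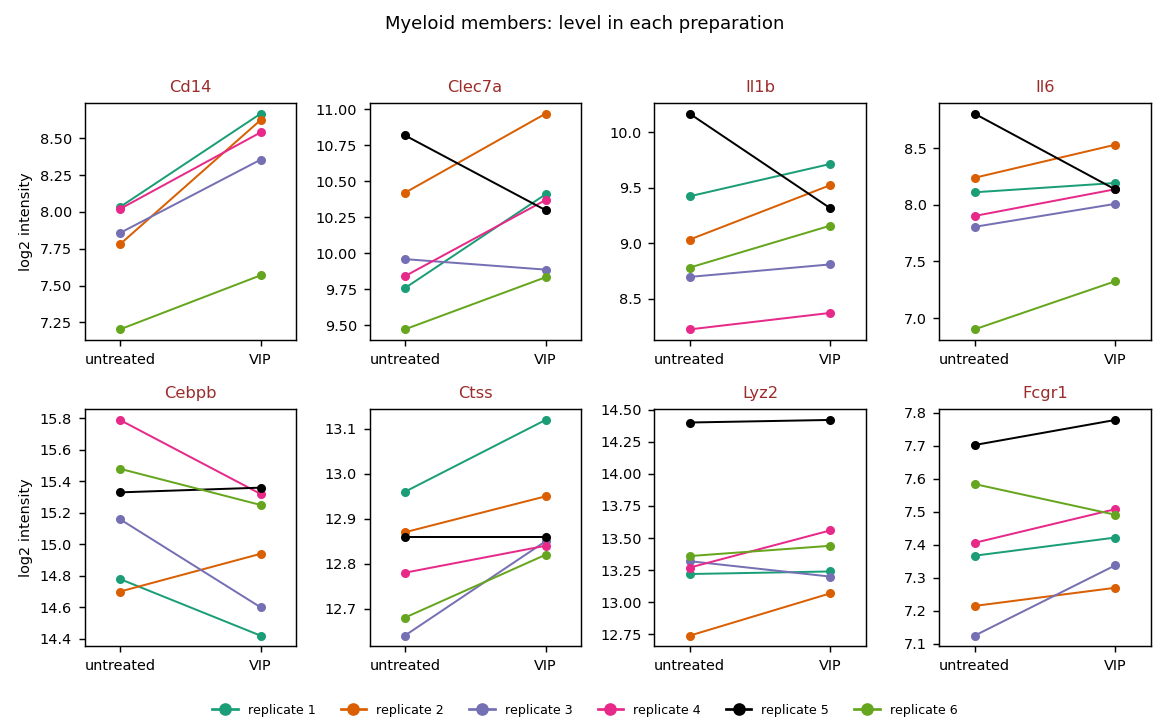
Log2 level of 8 myeloid genes, with a line per array joining its untreated and VIP channels, after the same scaling; each panel has its own axis. Cd14 is higher in the VIP channel on each of the 5 arrays with a value, and Lyz2 is highest on replicate 5 (14.40 untreated, 14.42 with VIP).

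Further lists, of the same cells, of class II and related genes and of other cells, were read for counts. Of 20 further B cell genes 1 fell with VIP, Pou2af1, a transcriptional coactivator (log2 ratio -0.32 ± 0.05, SE, n = 6, limma adjusted p = 0.0135). Over all genes 0.57% were called lower. The median of the 20 was 0.02, and 60% of the ratios were above 0, against 49.5% of all genes. Untreated Pou2af1 was lowest on replicate 5 (14.09), where untreated Ighm was highest (16.21). On replicate 6, where untreated Ighm was lowest (13.58), it was 14.75. Which cells its signal came from was not tested. Pou2af1 did not pass without the offset (limma adjusted p = 0.13), with Agilent's log ratios (0.205), with median centring (0.687) or with unpaired channels (1). Nor did it pass without replicate 1, 3, 4 or 6 (limma adjusted p from 0.067 to 0.0793). None of 15 further class II and related genes passed in limma, and none had an unadjusted p under 0.05. Their median was 0.02, and 66.7% of the ratios were above 0, against 49.5% of all genes. None of 32 further myeloid genes passed in limma, and the median was 0.05. Of the 32, 6 had an unadjusted p under 0.05, all higher, against 7.16% of all genes. Ratios above 0 were seen for 28 (87.5%), against 49.5% of all genes. The smallest p there was that of the chemokine receptor Ccr2 (0.22 ± 0.07, SE, n = 6, limma adjusted p = 0.161). Of 15 T cell genes 3 passed as higher with VIP, against 1.62% of all genes. Their median was 0.05, and 73.3% of the ratios were above 0, against 49.5% of all genes. Of 8 tested erythroid and platelet genes none passed in limma, none had an unadjusted p under 0.05, the median was -0.06 and 0 ratios were above 0. Cd4 had a ratio of 0.04 ± 0.04 and Cd3e of 0.05 ± 0.04 (SE, n = 6, limma adjusted p = 0.767 and 0.698), and Cd3e turned to -0.03 with the mean over its probes. None of 8 tested neutrophil genes passed in limma, and none had an unadjusted p under 0.05.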

How the data were processed

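The 6 two-colour arrays each compared VIP-treated with untreated CD4 cells. Per the file headers, Agilent Feature Extraction 9.5.1.1 gave the deposited spot intensity, local background and outlier flags, and probes are placed on mm9. The deposited log10 ratios, in the scanner files and in the authors' series table, were used as alternatives. The series table's medians were 0 on 5 arrays and -0.000222 on replicate 3, and it followed the scanner values turned to VIP over untreated (largest difference 4.5e-06).

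Background was removed from mean intensity with normexp (offset 50, on the local median background), followed by loess within each array, in limma 3.58.1 (R 4.3.3). The 1639 control spots had weight 0, and outlier spots were left out. Spots of a probe were averaged. A gene took its brightest probe among those with values on at least 4 arrays, a condition set after the files were seen, and was tested if well above background on at least 3 arrays in either channel. The fit (lmFit, eBayes) had VIP and a dye term, with Benjamini-Hochberg adjustment over all genes tested. The array pairs the channels. Levels came from Aquantile scaling after loess. The number of arrays limits the precision. Of 41174 probes, 25001 were named by accession and 1767 by synonym through RefSeq tables (GRCm38.p6), and 14406 kept the file's name.

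Named genes were those called, the 6 with the smallest p in each group (all class II genes), and Cd4 and Cd3e. From other lists, the gene with the smallest p could be named, and some results under this rule are not reported here. The genes and lists were chosen with earlier results of these data known. Alternatives changed background correction, normalization, filter, probe choice, dye term, slide, pairing and weights, or left out an array. The position of probes in exons or untranslated regions was not analysed here.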

Additional observations from a re-analysis of the deposited data

Results flagged for a closer look

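Single arrays stood apart from the others in the levels of 4 named genes, by a gap that was large for the group's range (Dixon's test at the 95% level). The VIP level of Cd14 on replicate 6 was 7.57, and the nearest of the 5 values was 8.36. Untreated Ighm on replicate 5 was 16.21 with the nearest at 14.40, and VIP Ighm on replicate 5 was 16.27 with the nearest at 14.61. H2-Aa on replicate 6 was 10.41 untreated and 10.48 with VIP, and the nearest values were 11.43 and 11.49. Lyz2 on replicate 5 was 14.40 untreated and 14.42 with VIP, and the nearest values were 13.36 and 13.56. In all, 63 groups of values were looked at and 7 were marked, and chance marks about 1 in 20. Both channels of an array are marked together for Ighm, H2-Aa and Lyz2, so those marks are not independent. Their cause was not tested.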

How the results depend on the processing

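All genes called numbered 369 higher and 130 lower, and 1 of the B cell, class II and myeloid genes was called. Without the offset in background correction, 75 were higher, 9 lower and 0 of these genes. With Agilent's log ratio and with the authors' series table, 19 were higher, 0 lower and 0 of these genes, and the B cell median was 0.068. With median centring 121 were higher and 9 lower, and the class II median was 0.16. Without the dye term 158 were higher and 37 lower, and with array weights 236 were lower. With no replicate block (channels not paired), 1 was higher, 0 lower and 0 of these genes, and Cd14 had 0.57 with a limma adjusted p of 1. An unadjusted p under 0.05 was reached by 8 of these 41 tested genes as reported, 3 without the offset, 2 with Agilent's log ratio and 1 unpaired. Over all genes it was reached by 2946 of 22800 (12.9%) as reported and by 2438 of 22800 without the offset. With Agilent's log ratio it was reached by 2208 of 22800, and unpaired by 131 of 23112. Leaving out each array in turn gave 166 to 569 higher, 33 to 254 lower and 1 to 4 of these genes, the upper end of each without replicate 5 and the lower end of both all-gene counts without replicate 1. The myeloid median was 0.082 within slide 1, -0.015 within slide 3 and -0.0055 without replicate 1, and the B cell median 0.073 within slide 3. Directions turned for Fcgr1 (-0.0070) and Cd3e (-0.034) with the mean over all probes, and with 1 array left out for Il1b (-0.015 without replicate 1, up to 0.271) and Ciita (-0.0070 without replicate 3, up to 0.073). Within a slide, directions turned for Ciita (-0.052) and Sdc1 (-0.022) on slide 1, Cd4 (-0.013) on slide 2, and Clec7a (-0.077), Fcgr1 (-0.0086), Il1b (-0.237) and Il6 (-0.122) on slide 3. Over all 41 tested genes, the sign changed for 16 when some 1 array was left out. The causes were not tested. Signal over background limits Pax5, Tlr4, Itgam, Spi1 and S100a8.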
